A study of Homo sapiens with 4 samples.

Results

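The 10 genes described here encode the core of the Hippo signalling pathway in RKO cells, a human colorectal cancer cell line: the transcriptional co-activators YAP1 and WWTR1 (TAZ), the DNA-binding factors TEAD1, TEAD2, TEAD3 and TEAD4, the kinases LATS1, LATS2 and STK3, and the angiomotin-family protein AMOTL2. They were taken by gene symbol from 15357 genes in the tables of estimated counts and FPKM (fragments normalized for transcript length and library size). All 10 were listed, and all 10 were among the 11955 genes that passed the filter on low counts. The row with the symbol TAZ holds tafazzin, a mitochondrial phospholipid enzyme, and was not read as WWTR1. The study compared 2 samples of RKO cells that carried a control lentivirus (vector) with 2 samples that carried a lentivirus for CHD7 shRNA-2 (shCHD7_2), a short hairpin RNA against the mRNA of the chromatin remodeller CHD7. A single CHD7 hairpin was sequenced in this 1 cell line, so an effect of CHD7 loss and an effect of that hairpin cannot be told apart. Summed estimated counts were between 15734679 and 16068650 per sample.

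In the Hippo pathway, the kinases STK3 (MST2) and STK4 (MST1) activate LATS1 and LATS2, which phosphorylate YAP1 and WWTR1 and so keep them in the cytoplasm or mark them for degradation. When the kinases are inactive, YAP1 and WWTR1 enter the nucleus, bind TEAD proteins and drive genes for growth and adhesion, among them CCN1 and CCN2, and genes that feed back on the pathway, such as AMOTL2 and LATS2. In the intestine YAP1 is known for its part in regeneration of the epithelium and in colorectal tumours, and much of the regulation of the pathway acts on proteins, which RNA levels do not show.

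The cell type of the samples was compared with its markers. Of 5 epithelial markers 4 were listed, KRT19 being absent. Of these, EPCAM, KRT8 and KRT18 were expressed, whereas CDH1 had 0 to 1 counts per sample. Of 6 intestinal markers 4 were listed, and of these CDX2 alone reached an FPKM of 1, whereas CDH17, KRT20 and LGR5 had 0 to 1 counts per sample. Of 6 fibroblast and 3 endothelial markers, 2 each were listed, and 0 reached an FPKM of 1 in any sample. Of 4 leukocyte markers 2 were listed, LYZ with 2 to 7 counts per sample and CD68, a lysosomal protein, at an FPKM of 495 to 530 in vector and 602 to 611 in shCHD7_2 samples. The log2 fold change of CD68 was 0.20 (adjusted p = 0.062, edgeR), and its part in the results for the 10 genes was not tested. CHD7 itself had 1326 and 1436 estimated counts in the vector samples and 890 and 800 in the shCHD7_2 samples. It fell by 0.74 on the log2 scale (SE 0.088, adjusted p = 4.2e-06, edgeR).

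Of the 10 genes, 3 were lower in shCHD7_2 cells. STK3 fell 1.55-fold and TEAD2 1.56-fold, and YAP1 was 1.23-fold lower, past the adjusted p threshold but short of the fold of 1.5 that a call also required. The other 7 genes, among them LATS1, TEAD1, TEAD3 and TEAD4, did not pass the adjusted p threshold of 0.05 (quasi-likelihood test of edgeR, adjusted by Benjamini-Hochberg over all genes tested). A call of lower was made for 2 of the 10 genes and for 1.37% of all genes tested, and a call in either direction for 2.88%. At any fold, 3 of the 10 were lower and 0 higher, against 6.54% of all genes lower and 4.94% higher. The log2 fold changes of the 10 genes ran from -0.64 to 0.23 with a median of -0.13, and the median over all genes tested was 0.00056.

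**Figure D1:**
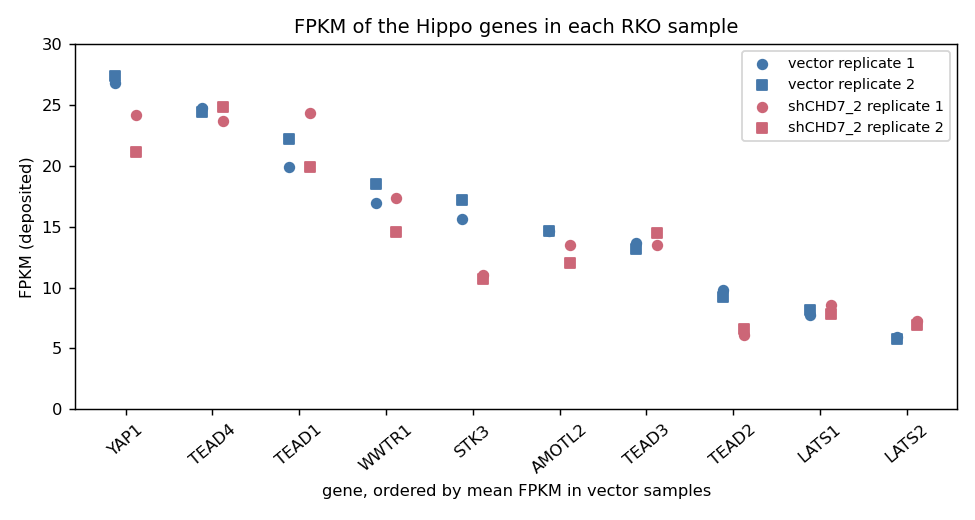
Deposited FPKM of each of the 10 genes (vertical axis, linear from 0) in each sample, with vector samples in blue and shCHD7_2 samples in red, circles for replicate 1 and squares for replicate 2. STK3 and TEAD2 show a wide gap between the groups, whereas the samples of TEAD1, TEAD3 and LATS1 intermingle.

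Among the effectors, YAP1 was the most abundant of the 10 genes in vector cells per unit of length. Its FPKM was 26.8 and 27.4 in the vector samples and 24.2 and 21.1 in the shCHD7_2 samples. The groups did not overlap, and the second shCHD7_2 sample was the lowest of the 4. In CPM (counts scaled to library sizes by TMM), YAP1 went from 138 ± 2.56 (mean ± SD, n = 2) to 112 ± 9.47 (n = 2), a log2 fold change of -0.30 (95% interval -0.47 to -0.13, adjusted p = 0.017, edgeR). This adjusted p rose to 0.091 without vector replicate 1, 0.20 without vector replicate 2 and 0.13 without shCHD7_2 replicate 2, and was 0.00089 without shCHD7_2 replicate 1. WWTR1, the paralog of YAP1, had an FPKM of 16.9 and 18.5 in vector samples and 17.4 and 14.6 in shCHD7_2 samples, so that its first shCHD7_2 sample lay between the vector samples. Its log2 fold change was -0.19 (95% interval -0.38 to -0.0026, adjusted p = 0.19, edgeR). It was -0.32 without shCHD7_2 replicate 1, where it passed the adjusted p threshold (0.023), -0.12 without vector replicate 2 and -0.081 without shCHD7_2 replicate 2. The log2 ratio of WWTR1 to YAP1 FPKM was -0.665 and -0.567 in the vector samples and -0.475 and -0.536 in the shCHD7_2 samples. The difference of 0.110 had p = 0.33 in an exact two-sided permutation test, which is the smallest p that 2 samples against 2 allow. The FPKM of YAP1 and WWTR1 together was 43.7 and 45.9 in vector cells and 41.5 and 35.7 in shCHD7_2 cells.

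Of the 4 TEAD genes, which encode the DNA-binding partners of YAP1 and WWTR1, TEAD2 was the one that passed a test. It had 305 and 299 estimated counts in the vector samples and 189 and 206 in the shCHD7_2 samples, with FPKM values of 9.80, 9.24, 6.12 and 6.63. Both shCHD7_2 samples were far below both vector samples. TEAD2 fell by 0.64 on the log2 scale (SE 0.12, 95% interval -0.90 to -0.38), or 1.56-fold, with adjusted p = 0.0013 (edgeR). Leaving out shCHD7_2 replicate 1 took the change to -0.58, under the fold of 1.5, at adjusted p = 0.0031, and testing all genes without a filter on low counts gave adjusted p = 0.056. Exons of TEAD2 overlap those of CD37, a tetraspanin gene on the opposite strand, and whether counting used strand is not given in the sources used here. CD37 had only 11 and 12 counts in vector samples and 7 and 5 in shCHD7_2 samples.

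The other TEAD genes did not pass the test. TEAD1 had FPKM values of 19.9 and 22.2 in vector samples and 24.3 and 19.9 in shCHD7_2 samples, and its groups overlapped (log2 fold change 0.025, 95% interval -0.16 to 0.21, adjusted p = 0.89, edgeR). TEAD3 had 13.6 and 13.1 against 13.5 and 14.5 FPKM, also with overlap (log2 fold change 0.020, 95% interval -0.17 to 0.21). TEAD4 had 24.7 and 24.4 against 23.7 and 24.9 FPKM (log2 fold change -0.061, 95% interval -0.25 to 0.13). These intervals leave room for changes of up to 0.25 on the log2 scale. The summed FPKM of the 4 TEAD genes was 68.0 and 69.0 in vector cells and 67.6 and 65.8 in shCHD7_2 cells, and within it the share of TEAD2 was 14.4% and 13.4% against 9.06% and 10.1%. That difference of -4.33 percentage points had p = 0.33 in the exact two-sided permutation test, the smallest it can give. With CPM, which is not per length, in place of FPKM the difference was -2.27 points. The shares of TEAD1, TEAD3 and TEAD4 overlapped between the groups, with exact permutation p = 0.667, 0.667 and 1. TEAD4 held the largest share in 3 samples and TEAD1 in the first shCHD7_2 sample.

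**Figure D2:**
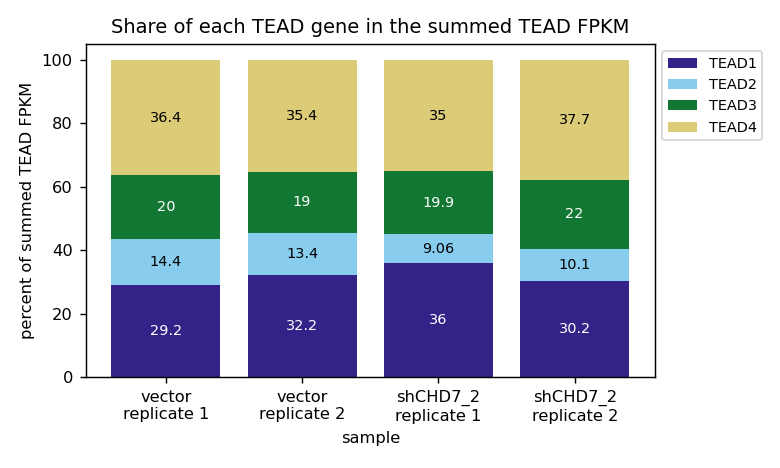
Stacked bars of the percent of summed TEAD FPKM (vertical axis) held by TEAD1, TEAD2, TEAD3 and TEAD4 in each of the 4 samples. The TEAD2 segment is 13.4% to 14.4% in vector samples and 9.06% to 10.1% in shCHD7_2 samples.

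Among the kinases, STK3 gave the smallest p of the 10 genes. STK3 (chr8:98371228-98942827, minus strand, GENCODE 29 on GRCh38), which phosphorylates the LATS kinases, had 679 and 753 estimated counts in vector samples and 482 and 463 in shCHD7_2 samples, with FPKM values of 15.6, 17.2, 11.02 and 10.7. Both shCHD7_2 samples lay below both vector samples. STK3 fell by 0.63 on the log2 scale (SE 0.095, 95% interval -0.83 to -0.43), or 1.55-fold, with adjusted p = 8.3e-05 (edgeR). Without vector replicate 2 the change was -0.57, under the fold of 1.5, at adjusted p = 0.0014, and limma on log2(FPKM + 1) gave -0.55 at adjusted p = 0.0018. STK4, its paralog with the same place in the pathway, had 44.5 and 46.2 FPKM in vector cells and 45.3 and 40.2 in shCHD7_2 cells (log2 fold change -0.13, adjusted p = 0.30, edgeR). STK4 was the more abundant of the pair per unit of length, and the ratio of STK3 to STK4 FPKM was 0.352 and 0.372 in vector cells against 0.243 and 0.266 in shCHD7_2 cells, a ratio computed after the values were seen and not tested.

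LATS1 and LATS2, the kinases that phosphorylate YAP1 and WWTR1, had the lowest FPKM of the 10 genes in vector cells. LATS1 had 7.72 and 8.14 FPKM in vector samples and 8.61 and 7.82 in shCHD7_2 samples, with overlap (log2 fold change -0.025, 95% interval -0.22 to 0.17, adjusted p = 0.90, edgeR). LATS2 had 5.97 and 5.74 against 7.22 and 6.90 FPKM, so that both shCHD7_2 samples were above both vector samples. It was the only one of the 10 genes with that order, and its log2 fold change of 0.23 (95% interval 0.039 to 0.43) did not pass after adjustment (adjusted p = 0.12, edgeR). The log2 ratio of LATS2 to LATS1 FPKM was -0.371 and -0.504 in vector cells and -0.254 and -0.181 in shCHD7_2 cells (difference 0.220, exact two-sided permutation p = 0.33). AMOTL2, a junction-associated protein that binds YAP1 and is also a transcriptional target of it, had 14.6 and 14.7 FPKM against 13.5 and 11.98 (log2 fold change -0.25, 95% interval -0.43 to -0.064, adjusted p = 0.074, edgeR). Without shCHD7_2 replicate 1 AMOTL2 was at -0.33 and passed that threshold (0.026). In CPM, the groups did not overlap for 7 of the 10 genes, 6 of them lower in shCHD7_2 cells and LATS2 higher. WWTR1 and TEAD4, which are among the 6, overlapped in FPKM. Among all genes tested, 53.7% had groups that did not overlap in CPM, and the count is to be read against that share.

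**Figure D3:**
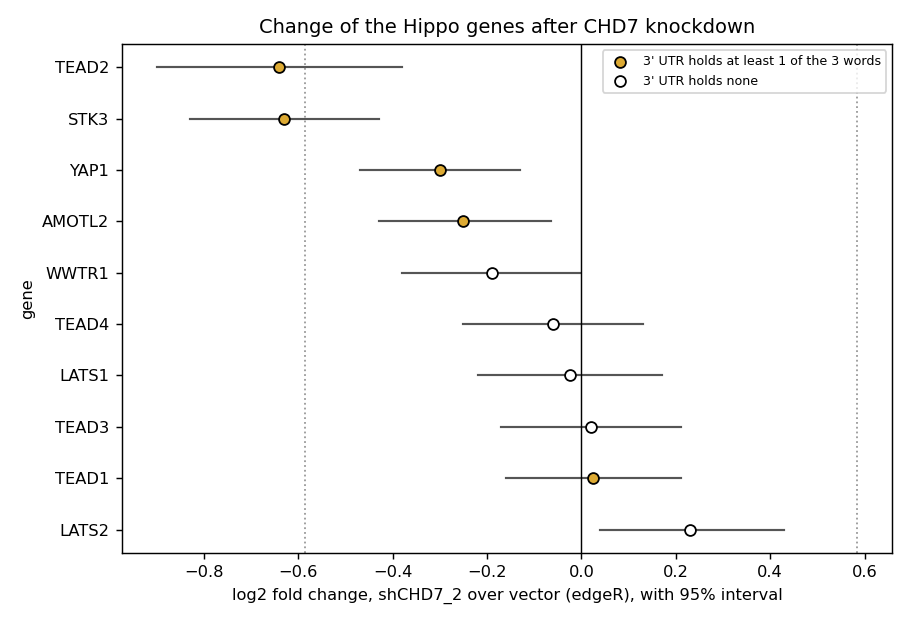
The log2 fold change of each of the 10 genes, shCHD7_2 over vector (horizontal axis), as points with 95% intervals from edgeR, with dotted lines at a fold of 1.5 in either direction and filled points for genes whose 3′ UTR holds at least 1 of 3 words described in the text. The intervals of TEAD2, STK3, YAP1, AMOTL2 and WWTR1 lie below 0 and that of LATS2 above 0, before any adjustment for multiple tests.

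Set in order of FPKM, vector cells ran from YAP1 through TEAD4, TEAD1, WWTR1, STK3, AMOTL2, TEAD3, TEAD2 and LATS1 to LATS2. Of the neighbours in that order, WWTR1 and STK3 were the pair whose samples overlapped. In shCHD7_2 cells TEAD4 stood first, followed by YAP1 and TEAD1, with overlap between YAP1 and each of the other two, and TEAD3 and AMOTL2 shared a value of 13.46. STK3 went from rank 5 to rank 7 and TEAD2 from rank 8 to rank 10. Among all genes tested, YAP1 stood at percentile 73.1 of FPKM in vector cells and 67.4 in shCHD7_2 cells, STK3 at 58.5 and 44.6, TEAD2 at 41.5 and 30.1, and LATS2 at 28.7 and 32.4. The 10 genes therefore lay around the median FPKM of all genes tested, 12.6 in vector and 13.0 in shCHD7_2 cells.

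The genes lie apart in the genome. In GENCODE 29 on GRCh38, YAP1 (chr11:102110461-102233423, plus strand) and TEAD1 (chr11:12674591-12944483, plus strand) share a chromosome at a distance, as do WWTR1 (chr3:149517235-149736714) and AMOTL2 (chr3:134355874-134375479), both on the minus strand. TEAD3 (chr6:35473597-35497076) and LATS1 (chr6:149658153-149718256) are on the minus strand of chromosome 6. TEAD2 (chr19:49340595-49362457, minus strand), TEAD4 (chr12:2959330-3040673, plus strand) and LATS2 (chr13:20973032-21061547, minus strand) stand alone.

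Sites in 3′ UTRs are shown because the 3 lower genes share a word there, which AMOTL2 and TEAD1 also hold. In an earlier scan of these same data, the 7-base word AGCTATT marked genes that were lower in shCHD7_2 cells. GAAGCTA was another such word in that scan, and so was a further word, GCTATTA, so what follows describes where these words lie and supports no finding. The longest 3′ UTR of each gene was read on the sense strand from GENCODE 29. GCTATTA can overlap AGCTATT with a shift of 1 base, and GAAGCTA shares the bases AGCTA with it, so the words are not independent. The sites of AGCTATT, with the word in capitals, were at chr11:102231063-102231091 (plus strand) in YAP1, chr11:12942176-12942204 (plus strand) in TEAD1, chr19:49340595-49340622 (minus strand) in TEAD2 and chr3:134356365-134356393 (minus strand) in AMOTL2, on GRCh38.
YAP1: gttctagaaagAGCTATTactgtggatag
TEAD1: accaaatacttAGCTATTtgtgaatcttc
TEAD2: acagaggataaAGCTATTttaccaaaaa
AMOTL2: tcagccccaggAGCTATTggtgggtttta
In TEAD2 the word ends 10 bases before the end of the 3′ UTR. STK3 also holds AGCTATT, at base 301 of a 3′ UTR of 1211 bases. YAP1 holds GCTATTA at bases 240 and 1135 of 3483, and the match at 1135 overlaps its AGCTATT at base 1134, shown above.

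Thus 5 of the 10 genes held at least 1 of the words, and WWTR1, TEAD3, TEAD4, LATS1 and LATS2 held none. Of the 5 with a word, 3 were lower at an adjusted p under 0.05 (STK3, TEAD2 and YAP1), with a median log2 fold change of -0.30 and a range of -0.64 to 0.025. Of the 5 without, 0 were lower, with a median of -0.025 and a range of -0.19 to 0.23. AMOTL2 and TEAD1 held AGCTATT and did not pass the test, and TEAD1, with its word at base 4965 of 7261, had a log2 fold change of 0.025. Over all genes tested with a 3′ UTR, 2610 of 11688 (22.3%) held a word. Of these, 16.1% were lower at that threshold, against 3.81% of the 9078 genes with none. The words were picked in a scan of these same data because they marked lower genes. That choice by itself favours such a gap, and the split among the 10 genes, so neither supports a finding. Longer 3′ UTRs hold any word more often, so shares were also read among genes of like length. Like length means a 3′ UTR at least 0.8 times as long and at most that length divided by 0.8. For the genes with a word, the share was 8.48% for TEAD2, 15.5% for STK3, 22.4% for AMOTL2, 40.8% for YAP1 and 69.1% for TEAD1. For those without, it was 3.39% for TEAD4, 19.0% for TEAD3, 22.4% for LATS2, 41.9% for WWTR1 and 42.1% for LATS1.

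The targets of YAP1, WWTR1 and the TEADs were read next. Of a list of 20 such targets other than the 10 genes, 17 were listed and 15 tested. CCN1 and CCN2 were called lower, and 7 of the 15 were lower and 1 higher at an adjusted p under 0.05 at any fold. Over all genes tested, 1.37% were called lower, and 6.54% were lower and 4.94% higher at any fold. The median log2 fold change of the 15 was -0.24, against 0.00056 over all genes tested, and this list was chosen with earlier results of these data known. CCN1 (listed as CYR61), a secreted matricellular protein, had 2775 and 2710 estimated counts in vector samples and 1637 and 1763 in shCHD7_2 samples. It fell by 0.72 on the log2 scale (SE 0.079, adjusted p = 1.2e-06, edgeR). CCN2 (listed as CTGF), its relative and a widely used readout of YAP1 activity, had 194 and 192 counts against 94 and 83, and fell by 1.15 (SE 0.16, adjusted p = 2.3e-05, edgeR). For both, each shCHD7_2 sample was well below each vector sample.

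AXL, a receptor tyrosine kinase, was the most abundant of these targets per unit of length, with a mean FPKM of 179.9 in vector and 128.4 in shCHD7_2 cells. It had 12973 and 12495 counts in vector samples and 9203 and 9073 in shCHD7_2 samples. Its log2 fold change of -0.51 (SE 0.070, adjusted p = 2.6e-05, edgeR) stayed under the fold of 1.5. CRIM1, a transmembrane protein that binds bone morphogenetic proteins, had 2443 and 2439 against 1946 and 1735 counts (log2 fold change -0.44, adjusted p = 0.00076, edgeR). The other targets past the adjusted p threshold, named after their values were seen apart from PTPN14, were DOCK5 (-0.37), MYOF (-0.41) and PTPN14 (-0.42), which were lower, and NT5E (0.44), which was higher. Without vector replicate 2 the adjusted p of these 4 was 0.097, 0.25, 0.17 and 0.097, and that of MYOF was 0.057 without shCHD7_2 replicate 2. ANKRD1, another common readout, had 0 to 3 counts per sample and was not tested. The 3′ UTR words were present in 3 of the 15 targets, of which 2, CCN1 and DOCK5, were lower. Of the 12 targets without a word, 5 were lower, and CCN2, AXL and CRIM1 were among these.

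**Figure D4:**
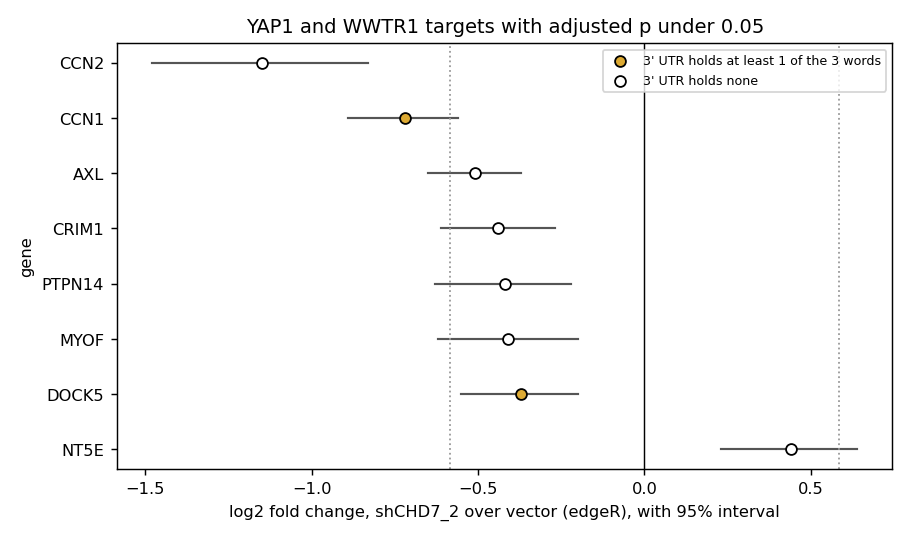
The log2 fold change, shCHD7_2 over vector (horizontal axis), of the 8 targets of YAP1, WWTR1 and the TEADs with an adjusted p under 0.05, as points with 95% intervals from edgeR, dotted lines at a fold of 1.5 and filled points for genes whose 3′ UTR holds a word. CCN2 and CCN1 lie beyond the dotted line on the lower side, and NT5E is the 1 point above 0. The targets that did not pass are not drawn.

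The promoters were searched for the core of the TEAD binding motif, GGAATG or its reverse complement CATTCC, because AMOTL2 and LATS2 are known targets of YAP1 and the TEADs. RefSeq (GRCh38.p14) gave promoters, mostly the bases before a start site with a short stretch after it, for 7 of the 10 genes, with 11 start sites in all, and TEAD1, TEAD4 and STK3 had no entry. The motif was in 3 of these 11 promoters, those of YAP1, of LATS2 and of the second start of AMOTL2, and in 1566 of 13821 promoters of genes tested (11.3%). Of 9 promoters of 8 targets tested, 4 held it. The promoters of AMOTL2 (chr3:134374398-134374697, minus strand), LATS2 (chr13:21061537-21061836, minus strand) and CCN2 (chr6:131951323-131951622, minus strand) are shown, with the motif in capitals, since the first 2 genes are feedback targets whose log2 fold changes were of opposite sign and did not pass the test and CCN2 had the largest change of the targets tested.
AMOTL2: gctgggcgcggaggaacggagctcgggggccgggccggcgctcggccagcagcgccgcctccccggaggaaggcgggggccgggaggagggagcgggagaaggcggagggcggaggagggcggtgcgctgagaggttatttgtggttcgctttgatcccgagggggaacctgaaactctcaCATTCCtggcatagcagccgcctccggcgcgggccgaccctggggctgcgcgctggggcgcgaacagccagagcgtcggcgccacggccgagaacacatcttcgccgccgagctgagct
LATS2: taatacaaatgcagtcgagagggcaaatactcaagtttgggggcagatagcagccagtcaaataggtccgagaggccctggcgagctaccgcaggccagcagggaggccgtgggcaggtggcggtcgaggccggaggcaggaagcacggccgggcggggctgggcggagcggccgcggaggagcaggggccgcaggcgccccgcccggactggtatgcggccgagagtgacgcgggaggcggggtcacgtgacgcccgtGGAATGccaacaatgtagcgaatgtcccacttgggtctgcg
CCN2: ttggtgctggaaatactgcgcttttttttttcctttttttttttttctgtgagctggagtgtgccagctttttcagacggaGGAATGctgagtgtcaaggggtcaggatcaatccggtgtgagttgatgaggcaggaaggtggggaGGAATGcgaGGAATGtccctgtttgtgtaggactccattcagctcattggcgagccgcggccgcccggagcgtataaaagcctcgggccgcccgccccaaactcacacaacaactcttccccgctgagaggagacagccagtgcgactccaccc
The match began 69 bases before the start site in AMOTL2 and at base 10 after it in LATS2, and CCN2 held 3 matches, 169, 104 and 95 bases before its start. A match of 6 letters is not a site, and TEAD binding was not measured in these samples.

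Of 48 other genes of the pathway, which act upstream of the kinases or on YAP1 and the TEADs, 45 were listed and 42 tested. PTPN14 is on this list and on that of the targets, so it is counted in both. Of the 42, 2 were called higher, AMOTL1 among them, against 1.51% of all genes tested, and 0 were called lower, against 1.37%. At any fold 3 of the 42 were higher, against 4.94% of all genes, and 4 of the 42 lower, against 6.54%. Whether these shares differ from those of all genes was not tested. The median log2 fold change of the 42 was -0.02. AMOTL1, an angiomotin related to AMOTL2, had 2 and 4 counts in vector samples and 28 and 25 in shCHD7_2 samples. Its log2 fold change was 3.06 (95% interval 2.05 to 4.07, adjusted p = 0.00017, edgeR), at an FPKM of no more than 0.21 in any sample.

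Other core genes of the pathway did not pass the test. SAV1, the scaffold of STK3 and STK4, had a log2 fold change of 0.013, and MOB1A, the co-activator of the LATS kinases, -0.034. NF2, the upstream activator merlin, was at 0.19 (adjusted p = 0.17, edgeR), and VGLL4, which competes with YAP1 for TEADs, at 0.051. AMOT, the founding angiomotin, had 48 and 53 counts against 41 and 36 (log2 fold change -0.42, adjusted p = 0.28, edgeR). Those past the adjusted p threshold under a fold of 1.5, chosen for naming after their values were seen apart from PTPN14, were MOB1B (-0.31), FRMD6 (-0.33), PTPN14 (-0.42) and STRN (-0.36) on the lower side and SCRIB (0.31) on the higher. Without vector replicate 2, the adjusted p of MOB1B, FRMD6, STRN and SCRIB was 0.30, 0.19, 0.11 and 0.32, and without shCHD7_2 replicate 2 it was 0.41, 0.071, 0.19 and 0.15. MOB1B also lost it without vector replicate 1 (0.072).

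**Figure D5:**
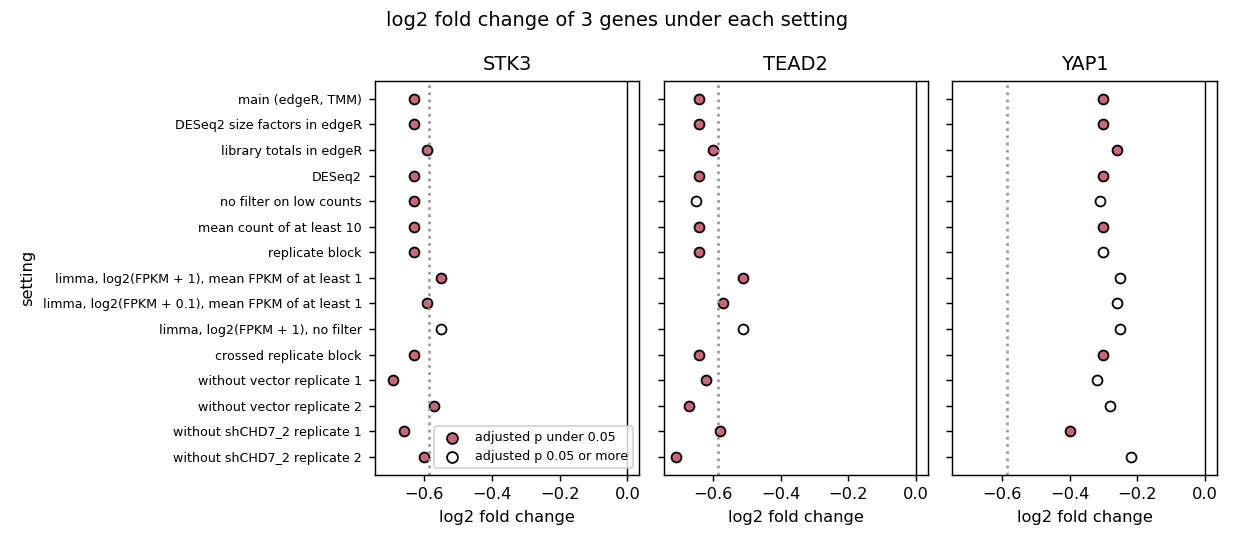
The log2 fold change of STK3, TEAD2 and YAP1 (horizontal axes) under each setting of the analysis (vertical axis), filled where the adjusted p was under 0.05, with a dotted line at a fold of 1.5. All points are below 0, those of STK3 run from -0.69 to -0.55, those of TEAD2 from -0.71 to -0.51 and those of YAP1 from -0.40 to -0.22.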

How the data were processed

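RNA-seq was measured in 2 vector and 2 shCHD7_2 samples of RKO cells, grouped by their titles. The authors deposited estimated counts per gene, without normalization, and FPKM values, normalized by them for transcript length and library size. The submitters' processing notes name Bowtie2, RSEM, DESeq2 and hg38, with no version or role, and the annotation and use of strand are not given in the sources used here. RSEM, a tool that estimates counts, divides reads between similar genes, which can move counts between paralogs. The labels do not say that the samples were separate cultures, so p-values measure only the spread between these samples, which may be technical.

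The estimated counts were rounded (1 of 40 values of the 10 genes was not whole). In R 4.3.3, genes were filtered by filterByExpr of edgeR 4.0.16, scaled by TMM and tested across all 11955 genes with the quasi-likelihood test and Benjamini-Hochberg adjustment. Calls required a fold of at least 1.5 together with an adjusted p under 0.05, the study's thresholds. Standard errors and 95% intervals come from the F statistic, and the biological coefficient of variation was 0.0579. Alternatives were DESeq2 1.42.0, other scalings and filters, a replicate block, limma 3.58.1 on log2(FPKM + 1 or 0.1) and leaving out each sample, where the lone sample of a group is assumed to vary like the other group. Ratios were tested by exact two-sided permutation, whose smallest p is 0.33. The fits were checked on simulated data. Sequences and plots were made in Python 3.11.15 with pandas 2.3.3 and matplotlib 3.10.9, from RefSeq promoters on GRCh38.p14 and from GENCODE 29. The sequence words were taken from an earlier scan of these data.

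The 10 genes, the gene lists and the tests were chosen with earlier results of these data known. The rule for naming took the 10 genes, CHD7, STK4, SAV1, MOB1A, NF2, AMOT, AMOTL1, VGLL4, CCN1, CCN2, ANKRD1 and, from the lists of other pathway genes and of targets, each called gene and the 4 with the largest absolute log2 fold change. The other genes named were chosen after their values were seen. A result under that rule is left out here.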

Additional observations from a re-analysis of the deposited data

How the results depend on the processing

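The direction of change of STK3, TEAD2, YAP1, CCN1 and CCN2 was the same under every alternative run. For these genes both shCHD7_2 samples lay below both vector samples, so the alternatives had little room to reverse it. The calls at a fold of 1.5 were not the same throughout. Of the 10 genes, 2 were called, and 1 was without a filter on low counts, 0 with limma on log2(FPKM + 1), 1 with limma on log2(FPKM + 0.1) and 0 with limma and no filter, with 1 to 2 when 1 sample was left out. With limma on log2(FPKM + 1), STK3 was at -0.55 (adjusted p = 0.0018) and TEAD2 at -0.51 (adjusted p = 0.0052), and without a filter at 0.087 and 0.10. TEAD2 had adjusted p = 0.056 in edgeR without a filter, and YAP1 had 0.031 with DESeq2, 0.14 without a filter and 0.075 to 0.22 with limma.

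Of the other pathway genes, 2 were called, against 1 without a filter, 7 with no fold threshold, 0, 1 and 0 with limma, and 1 to 2 with a sample left out. Of the targets, 2 were called, against 8 with no fold threshold and 0 with limma and no filter. Over all genes, 344 were called, against 221 with DESeq2, 141 without a filter, 1373 with no fold threshold, and 172 and 23 with limma with and without a filter. CHD7 was at -0.51, -0.58 and -0.51 in the 3 limma fits, under the fold of 1.5. The cause of these differences was not tested, except that log2(FPKM + 1) shrinks the changes of low genes by construction. For CHD7, mean CPM went from 88.19 in vector to 52.82 in shCHD7_2 samples. Its mean FPKM went from 8.275 to 5.495, a smaller relative fall into which no added constant enters. FPKM and CPM differ in the use of transcript length and in the scaling to library size, and the part of each in that gap was not tested.

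Samples with the same replicate number did not deviate alike from their group means (correlation of same-numbered deviations -0.198). With 2 samples per group, this value cannot show whether same-numbered samples were prepared together. With the replicate block, 329 genes were called and YAP1 had adjusted p = 0.11. With the numbers crossed, a pairing added after the data were seen, 423 genes were called, and 6 of the 10 genes passed the adjusted p threshold at any fold, against 3 without it. That number was 5 without shCHD7_2 replicate 1, 2 without each of the other samples, and 0 to 3 under the remaining alternatives.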

Other observations

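STK38L (NDR2), a kinase related to LATS1 and LATS2, was not on any of the lists and was chosen after its values were seen. It had 1059 and 1051 estimated counts in vector samples and 639 and 565 in shCHD7_2 samples, and fell by 0.84 on the log2 scale (SE 0.091, adjusted p = 9.9e-07, edgeR), more than any of the 10 genes. Its paralog STK38 (NDR1) had 648 and 647 counts against 708 and 681, with a log2 fold change of 0.07 (95% interval -0.12 to 0.26, adjusted p = 0.68, edgeR). STK3 and STK38L were called lower, and their paralogs STK4 and STK38 did not pass the test. Since 2.88% of all genes tested were called, an uncalled paralog is the usual outcome, and no pattern is read from these pairs. The difference between paralogs was not tested.

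The effective transcript length implied by the deposited count and FPKM of a gene was steady for most of the 10 genes, such as 9.25 to 9.26 kb for TEAD1 in the 4 samples. For LATS1 it was 6.76, 6.68, 6.75 and 6.38 kb, with the second shCHD7_2 sample the shortest. The count of LATS1 in that sample, 787, was the lowest of the 4, whereas its FPKM of 7.82 was not.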
